A study of Mus musculus with 4 samples.

Results

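The genes described here are those that encode the subunits of potassium channels and of voltage-gated sodium and calcium channels. They were taken by name from the deposited table: names beginning Kcn followed by letters and a number, names of the form Scn plus a number plus a or b, and names beginning Cacna, Cacnb or Cacng. The rule found 127 of the 22770 genes in the table, of which 88 were potassium, 13 sodium and 26 calcium channel genes. All 127 are annotated as protein-coding. Their values were measured in whole cortex dissected from mouse embryos at embryonic day 16.5, in 2 wild-type libraries and in 2 libraries homozygous for the Pax6 allele Sey (sey/sey). The wild types were littermates of the mutants, and both genotypes had a mixed background of C57BL/6J, 129S6 and CD1. Sey is a germline allele, so every cell of the mutant embryo carries it. Nothing in the labels ties a library to an embryo of its own, so the p-values below measure only the spread between these samples, which may be technical. The question the comparison addresses is how RNA levels in embryonic cortex differ between wild type and Pax6 mutant.

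Ion channels are membrane proteins that let selected ions cross when voltage, calcium or other signals open them. Voltage-gated sodium channels start the action potential, voltage-gated calcium channels couple it to transmitter release and gene regulation, and potassium channels end it and set the resting potential. Each has subunits that form the pore, and many also have auxiliary subunits that adjust trafficking and gating. In embryonic cortex these genes come into use as newborn neurons leave the germinal zone, extend axons and become excitable. Pax6 is a transcription factor of the cortical progenitors that lie in that zone.

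Levels are in FPKM, fragments per kilobase of exon and scaled to the mapped total of each library, so levels can be compared between genes. What 1 fragment is worth was estimated from the most frequent low values of each library. The estimate lay between 0.0238 and 0.0386 FPKM for a gene with 4 kb of exon, so values well under 0.5 FPKM rest on few fragments. A gene was tested where it reached 0.5 FPKM in at least 2 libraries, which 15399 genes did. Differences are log2 fold changes of FPKM + 0.5, mutant over wild type, tested with limma, and the text calls a gene changed at an adjusted p under 0.05 over all tested genes. Both mutants, at 101 and 120 FPKM, were above both wild types, at 28.8 and 27.0 FPKM, for Pax6 RNA itself (log2 fold change 1.96 ± 0.10, SE). This level does not check the genotype, since Sey is a point mutation that leaves the RNA countable. The libraries also differed in markers of cell types. Of all tested genes, 25.8% were higher in both mutants and 25.8% were lower. All 8 interneuron markers were higher in both mutants, with summed levels of 148 to 168 FPKM in wild types and 757 to 837 FPKM in mutants. Of 8 markers of glutamatergic neurons 6 were lower in both mutants and 1 was higher, with summed levels of 1166 to 1246 FPKM in wild types and 680 to 749 FPKM in mutants. Progenitor markers summed to 256 to 286 FPKM in wild types and 381 to 416 FPKM in mutants, with 5 of 8 higher in both mutants and 1 lower. All 3 markers of intermediate progenitors were lower in both mutants, at summed levels of 92.6 to 113 and 11.6 to 19.3 FPKM. Endothelial markers were higher in both mutants in 6 of 6 cases, at 39.6 to 40.3 and 47.7 to 59.6 FPKM. Of 5 Cajal-Retzius markers 4 were higher in both mutants and 0 lower, at 54.0 to 55.3 FPKM in wild types and 79.3 to 88.8 FPKM in mutants. Most of that sum was Reln, at 47.1 FPKM in both wild types and 68.2 and 79.0 FPKM in mutants. Lhx1, among the 4 higher, was under 0.5 FPKM in every library. Meningeal markers stood apart in 1 mutant library, at a summed level of 28.1 FPKM against 6.74 in the other mutant and 3.26 to 4.63 FPKM in the wild types. Muscle markers summed to at most 1.24 FPKM in any library. Pericyte markers were higher in both mutants in 3 of 6 cases, oligodendrocyte precursor markers in 1 of 5 and microglial markers in 2 of 6. Lower in both mutants were 0, 0 and 2 of these. Of 5 choroid plexus markers 0 were higher and 1 was lower, and of 6 erythroid markers 2 were higher and 0 lower. In bulk tissue, fewer cells of a type and less RNA per cell cannot be told apart, and the part that these cell types have in the channel values was not tested.

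Of the 127 channel genes, 88 were tested: 59 potassium, 7 sodium and 22 calcium channel genes. The 84 that reached 0.5 FPKM in all 4 libraries include all 4 that changed. The other 4 tested genes were Cacng1, Kcnc4, Kcnj4 and Kcnk12, and only Kcnj4 entered through the wild types alone. The remaining 39 genes were not tested. They comprised 29 potassium, 6 sodium and 4 calcium channel genes, of which 22 were listed at 0 in 1 or more libraries, and the highest value any reached was 0.842 FPKM (Kcnk5, a potassium leak channel gene, in 1 wild-type library). Channels of heart, skeletal muscle and sensory neurons were in this group, such as Cacna1s, the skeletal muscle calcium pore, Scn4a, the skeletal muscle sodium pore, and Scn10a, a sodium pore of sensory neurons. Among the tested genes 26 averaged 10 FPKM or more, 54 lay between 1 and 10 FPKM, and 8 were under 1 FPKM. Of the 26 most abundant, 14 were calcium, 9 potassium and 3 sodium channel genes. The 10 highest genes held 51.1% of the summed channel FPKM, and 7 of those 10 were calcium channel genes.

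The summed level of all 127 channel genes was 1048 and 1052 FPKM in wild types, above the 962 and 964 FPKM of the mutants. At an adjusted p under 0.05, 4 of 88 tested genes changed (4.55%), against 3.48% of all 15399 tested genes, a share near the background. Cacna2d2 and Kcnh4 rose, against 2.02% of all genes, and Cacnb4 and Cacna2d1 fell, against 1.46%. At an unadjusted p under 0.05 there were 26 channel genes (29.5%), 10 higher and 16 lower, where 19.5% of all genes lay. Both mutants were above both wild types for 21 channel genes (23.9%, against 25.8% of all genes) and below them for 37 (42.0%, against 25.8%). The median log2 fold change was -0.13 over the 88 genes and 0.00 over all genes, with 30 channel genes above 0 and 58 below it. Without mutant library 2 the channel median was -0.08. In size, 67 of 88 log2 fold changes were under 0.5 (76.1%, against 85.1% of all genes) and 3 were 1 or more (3.41%, against 4.03%). None of the 4 calls held with any 1 of the 4 libraries left out, which leaves a lone library in 1 group. Calls over all genes fell as well. Calls among channel genes were also 0 when low genes were kept or the mean-variance trend of limma was left out. In these 2 settings 27 and 28 channel genes had an unadjusted p under 0.05, as did 3322 and 2764 of all genes. Over all genes 61 and 54 were then called instead of 536. In the authors' deposited table, whose test is not stated, 1 of the 127 channel genes had a p under 0.05, Cacnb4 at 1.06e-07, against 1.83% of the 22770 genes.

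**Figure D1:**
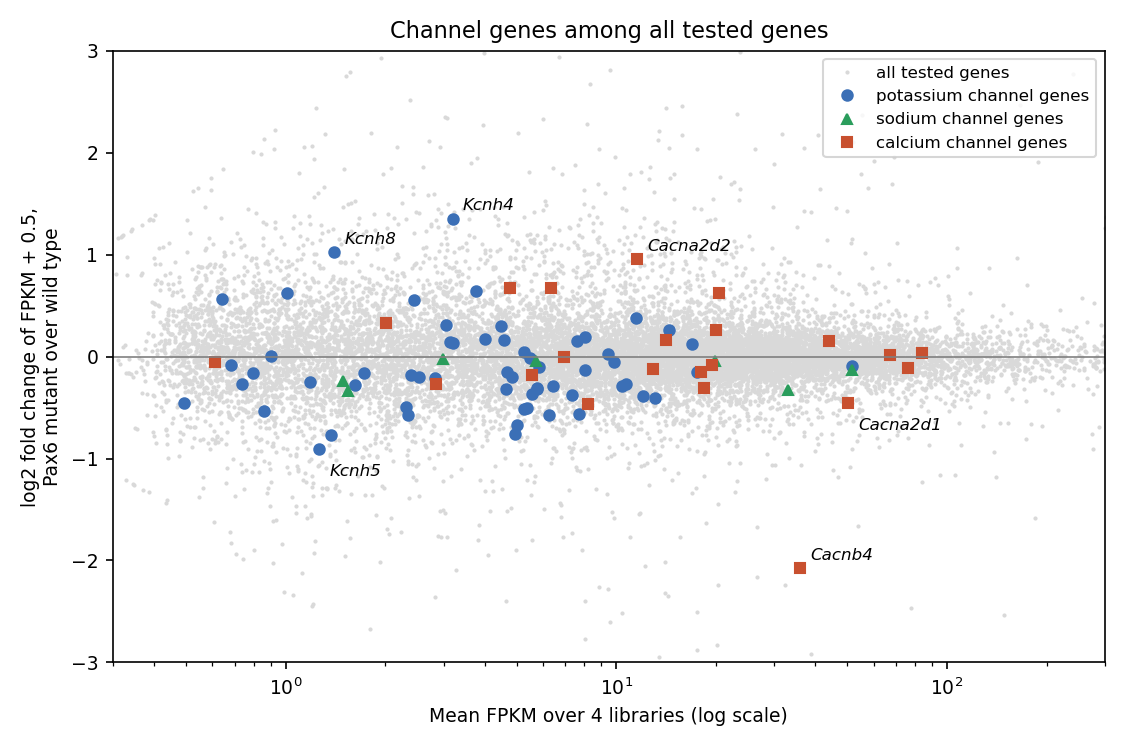
Mean level of each tested gene (x axis, log10 scale, FPKM over 4 libraries) against its log2 fold change of FPKM + 0.5 in Pax6 mutant over wild type (y axis), with channel genes coloured by ion and all other tested genes in grey. Labels mark the 4 changed genes (Cacnb4, Kcnh4, Cacna2d2 and Cacna2d1) and 2 that did not pass the threshold (Kcnh8 and Kcnh5), while 67 of 88 channel genes lie within 0.5 of 0. A further 260 tested genes fall outside the axes.

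The calcium channels gave 3 of the 4 changed genes, all of them auxiliary subunits. Beta subunits sit on the cytoplasmic side and bring the pore to the membrane, and alpha2delta subunits are extracellular and aid trafficking and synapse formation. Among 22 tested calcium channel genes, 1 rose and 2 fell (13.6%, against 3.48% of all genes), and 8 had an unadjusted p under 0.05 (36.4%, against 19.5%), 4 of them higher and 4 lower. The median log2 fold change was -0.03, and it lay above 0 without either wild-type library or without mutant library 2 (0.02 at most). Both mutants were above both wild types for 7 of the 22 and below for 6, where 25.8% of all genes lay each way.

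Cacnb4 encodes the beta4 subunit, whose loss causes ataxia and seizures in the lethargic mouse. It lies on chromosome 2 at 52428320 to 52676831 of GRCm38 on the minus strand. The wild types measured 46.6 and 70.5 FPKM, against 12.9 and 13.6 FPKM for the mutants, so the groups do not overlap and the wild types spread more than the mutants. Its log2 fold change was -2.08 ± 0.20 (SE, 95% interval -2.59 to -1.56, adjusted p = 0.0194 in limma), the largest in size among the channel genes. The difference stayed between -2.37 and -1.78 when a library was left out, but the adjusted p was then 0.0515 to 0.145. Its exons overlap A430018G15Rik on the other strand over 16.0% of their length, and that gene was listed at no more than 0.442 FPKM.

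Cacnb3, the beta3 subunit that is common in neurons, stood at 66.0 and 67.8 FPKM in wild types and 65.8 and 69.1 FPKM in mutants, and its log2 fold change was 0.01 (95% interval -0.15 to 0.17). Cacnb1, best known from skeletal muscle, was at 19.8 and 20.3 FPKM in wild types and 18.9 and 19.0 in mutants. Cacnb2, best known from heart, was at 1.40 to 2.03 and 1.75 to 2.86 FPKM. The sum of all 4 beta subunit genes was 134 and 160 FPKM in wild types and 100.5 and 103.4 FPKM in mutants. Cacnb4 held a different part of the group in each genotype: its share of the summed beta subunit FPKM was 34.7% and 44.1% in wild types and 12.8% and 13.1% in mutants. The share of Cacnb3 was 49.1% and 42.4% in wild types and 65.5% and 66.8% in mutants at a nearly level FPKM.

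The alpha2delta genes moved in opposite directions. Cacna2d1, the main alpha2delta subunit of this tissue by level and a binding site of gabapentin, fell from 60.2 and 56.1 FPKM to 41.9 and 42.8 FPKM, a log2 fold change of -0.45 ± 0.07 (SE, 95% interval -0.63 to -0.28, adjusted p = 0.0407 in limma). Cacna2d2, which is mutated in the ducky mouse, rose from 8.45 and 6.96 FPKM to 14.8 and 15.9 FPKM, a log2 fold change of 0.96 ± 0.13 (SE, 95% interval 0.62 to 1.30, adjusted p = 0.0346). In both genes the mutant libraries lie close together and apart from the wild types. Cacna2d3 was at 5.17 and 6.75 FPKM in wild types and 5.44 and 4.89 FPKM in mutants, with overlapping groups. The ratio of Cacna2d1 to Cacna2d2 FPKM was 7.12 and 8.06 in the wild types and 2.83 and 2.68 in the mutants. The summed level of the alpha2delta genes was 73.8 and 69.8 FPKM in wild types and 62.3 and 63.6 FPKM in mutants. The shares and this ratio were chosen after the values were seen, and with 2 libraries a group an exact two-sided permutation test can reach no p below 0.333, which each of those computed gave. Cacna2d1 lies on chromosome 5 at 15934691 to 16374511 on the plus strand, and Cacna2d2 on chromosome 9 at 107399612 to 107529343 on the plus strand. Without 1 library the adjusted p was 0.148 to 0.218 for Cacna2d1 and 0.127 to 0.201 for Cacna2d2, at log2 fold changes of -0.50 to -0.40 and 0.83 to 1.09.

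**Figure D2:**
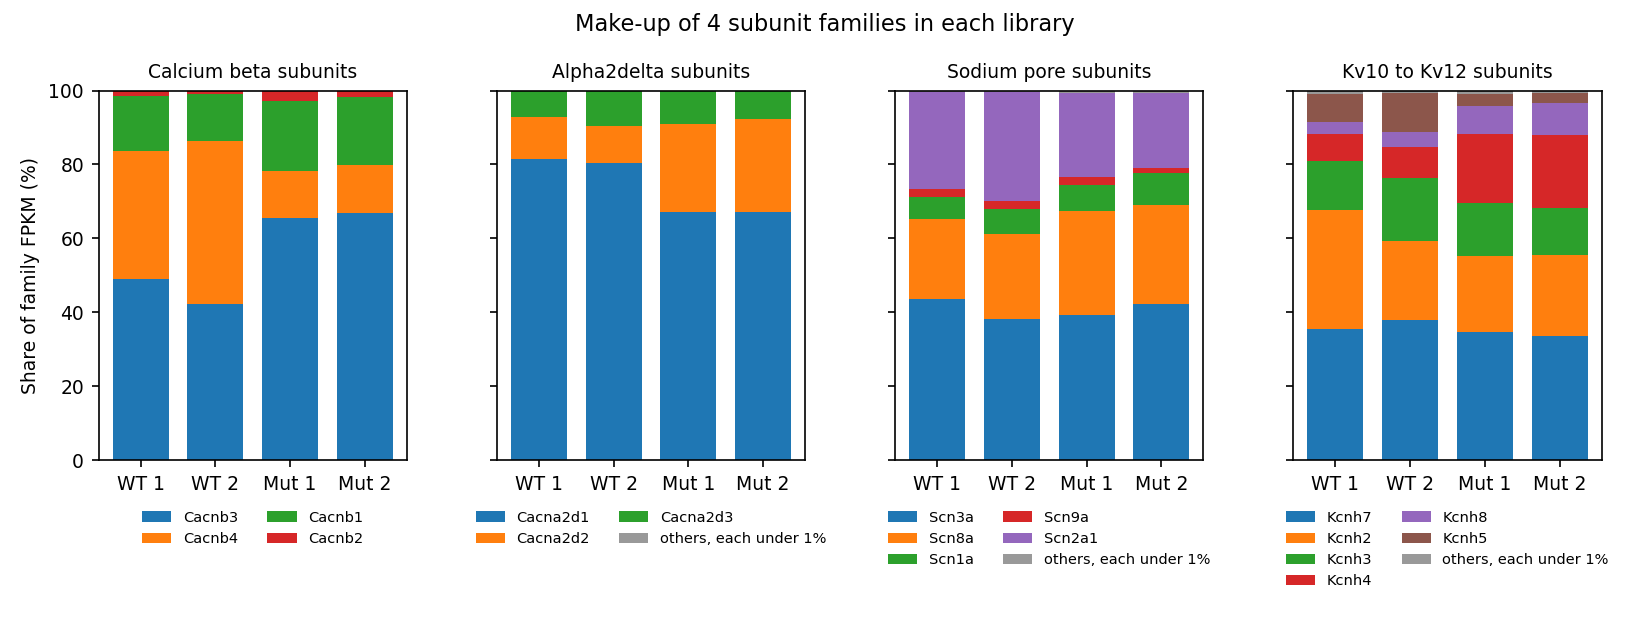
Share of the summed FPKM of a subunit group that each gene holds, per library (stacked bars, percent), for calcium beta subunits, calcium alpha2delta subunits, sodium pores (with Scn2a1, which the name rule leaves out) and the Kv10 to Kv12 potassium channels. The Cacnb4 share is 34.7% and 44.1% in wild types and 12.8% and 13.1% in mutants, and the Cacna2d2 share is 11.4% and 9.97% against 23.8% and 25.0%.

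None of the calcium pores changed at the threshold, which 3.48% of all genes passed. Pores of the L type, which signal from the membrane to the nucleus, differed in opposite directions: Cacna1c was at 17.2 and 14.6 FPKM in wild types and 21.4 and 28.4 FPKM in mutants (log2 fold change 0.62, 95% interval 0.20 to 1.04, adjusted p = 0.134 in limma), whereas Cacna1d was at 9.08 and 10.1 FPKM and then 6.97 and 6.70 FPKM (-0.46, adjusted p = 0.135). Groups of neither gene overlap, and Cacna1c is more spread in the mutants. Cacna1e, the R-type pore, was at 20.2 and 20.8 FPKM in wild types and 16.6 and 16.2 FPKM in mutants (-0.31, adjusted p = 0.136). Cacna1a and Cacna1b, the P/Q and N types that drive transmitter release, were at 13.2 to 15.3 and 15.9 to 21.7 FPKM over the 4 libraries. Cacna1h, a T-type pore that opens at low voltage, was the highest of the pores at 44.9 and 38.7 FPKM in wild types and 46.3 and 46.4 FPKM in mutants. The other T-type pores were Cacna1g, at 15.0 to 25.4 FPKM, and Cacna1i, at 2.49 to 3.33 FPKM.

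The Cacng genes encode TARPs and related proteins, most of which escort AMPA receptors rather than calcium pores. Cacng7 and Cacng4 are among the most abundant channel genes in these libraries. Cacng7 was at 83.4 and 83.0 FPKM in wild types and 85.6 and 84.6 FPKM in mutants, and Cacng4 at 75.7 and 82.7 FPKM and 71.0 and 75.9 FPKM. The Cacng7 groups do not overlap, although the log2 fold change was only 0.03 (95% interval -0.11 to 0.17). The summed level of the 8 Cacng genes was 190 and 194 FPKM in wild types and 192 and 193 FPKM in mutants. Of 7 tested, 2 had an unadjusted p under 0.05 (28.6%, against 19.5% of all genes). They were Cacng3 and Cacng5, at log2 fold changes of 0.67 and 0.68, but neither reached the adjusted threshold (0.141 and 0.152 in limma).

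Of the 59 tested potassium channel genes 1 rose and 0 fell in limma (1.69%, against 3.48% of all genes), and 17 had an unadjusted p under 0.05 (28.8%, against 19.5%), 6 higher and 11 lower. The median log2 fold change was -0.16. Both mutants were below both wild types for 27 and above for 14, where 25.8% of all genes lay each way. The summed level of the 88 potassium channel genes was 377 and 372 FPKM in wild types and 346 and 344 FPKM in mutants.

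**Figure D3:**
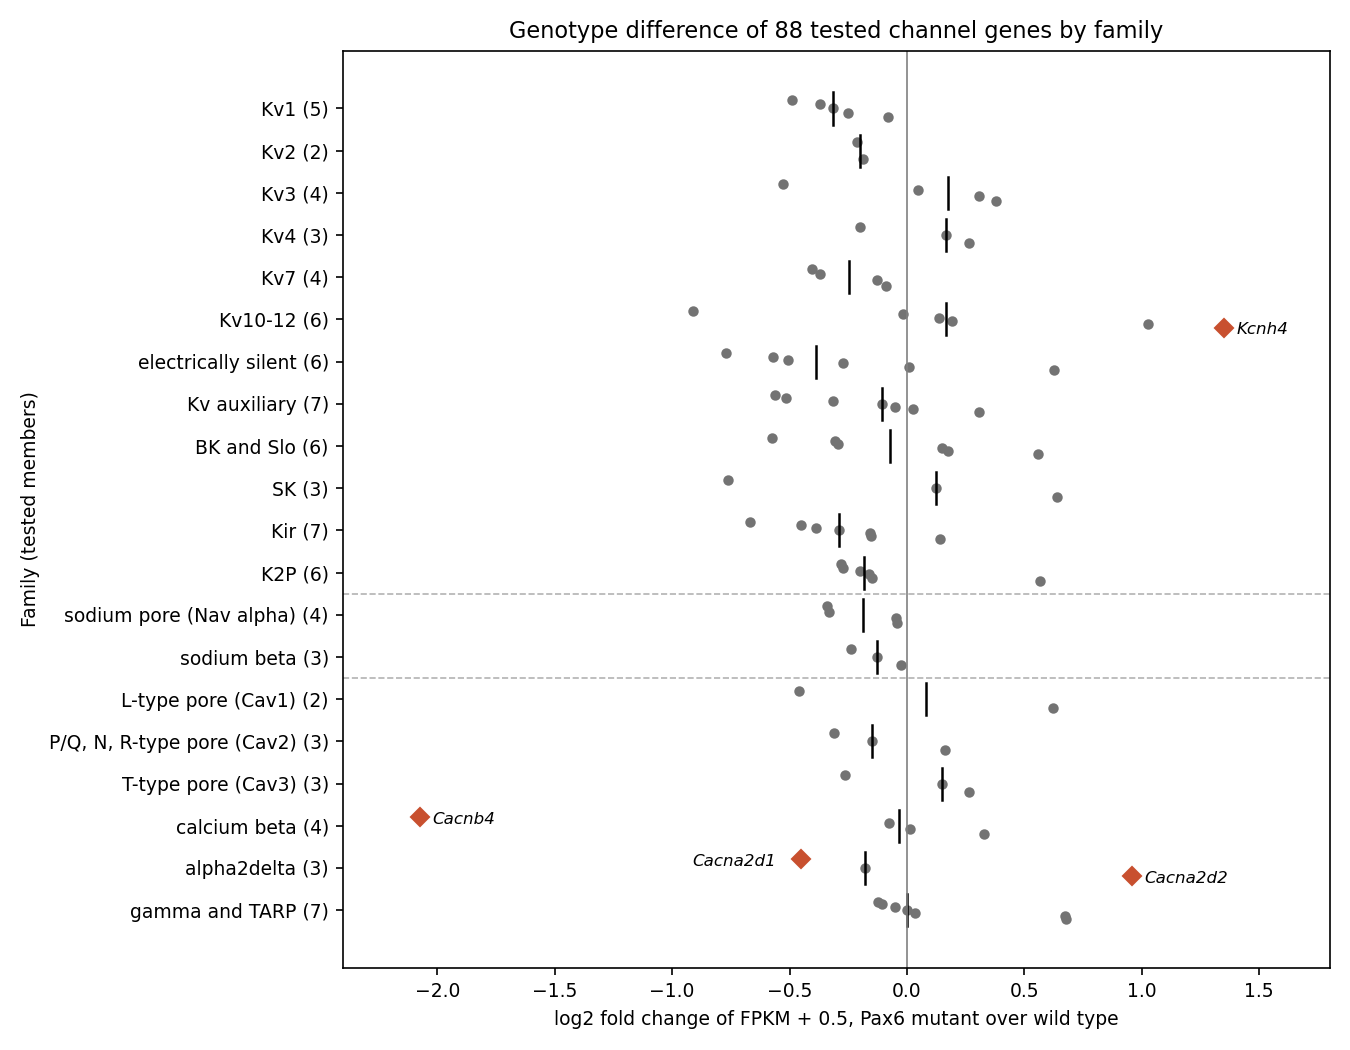
Log2 fold change of FPKM + 0.5 (Pax6 mutant over wild type) for each of the 88 tested channel genes by family, with the number of tested genes in brackets, a black bar at each family's median and dashed lines between potassium, sodium and calcium channels. The 4 diamonds are the genes with an adjusted p under 0.05, and dots are the others.

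Kcnh4 was the changed potassium channel gene. It encodes a pore of the Elk group of ether-a-go-go related voltage-gated potassium channels, and lies on chromosome 11 at 100740376 to 100759942 on the minus strand. It rose from 1.69 and 1.48 FPKM in wild types to 4.74 and 4.88 FPKM in mutants, with a log2 fold change of 1.35 ± 0.17 (SE, 95% interval 0.91 to 1.79, adjusted p = 0.0322 in limma). The mutants are close to each other and well above the wild types, but the level is low. With 1 library left out the log2 fold change was 1.28 to 1.43 and the adjusted p 0.126 to 0.199. The related Kcnh8 was at 0.739 and 0.762 FPKM in wild types and at 1.93 and 2.16 FPKM in mutants (1.02, 95% interval 0.48 to 1.57, adjusted p = 0.0813), without passing the threshold. Kcnh5, an Eag-type pore, differed the other way at 1.73 and 1.87 FPKM in wild types and 0.814 and 0.636 FPKM in mutants (-0.91, adjusted p = 0.119). Kcnh4 made up 7.31% and 8.28% of the summed FPKM of the 8 Kcnh genes in wild types and 18.6% and 19.7% in mutants. Kcnh7 was the highest of these genes, at 6.76 to 8.82 FPKM.

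The Kv7 channels carry the M current, which restrains repeated firing. Kcnq3, 1 of their pores, was at 14.2 and 15.7 FPKM in wild types and 11.2 in both mutants (-0.40, adjusted p = 0.126 in limma). Both mutants lie below both wild types for Kcnq3, while Kcnq5, at 7.01 to 9.01 FPKM, overlaps. The shaker-type Kv1 genes summed to 20.5 and 19.1 FPKM in wild types and 13.9 and 16.5 FPKM in mutants, with 4 of 5 tested genes lower in both mutants (25.8% of all genes) and 0 with an unadjusted p under 0.05 in limma (19.5% of all genes). Kcna4 lies on chromosome 2, as do Pax6, the changed gene Cacnb4 and other channel genes. Kcna4 stood at 0.668 and 0.755 FPKM in wild types and 0.773 and 0.529 FPKM in mutants.

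Electrically silent subunits form no channel alone and alter Kv2 channels when they join them. Of 6 tested, 4 were lower and 1 higher in both mutants, against 25.8% of all genes each way, and their summed level with untested genes was 19.0 and 18.2 FPKM in wild types and 14.1 and 12.6 FPKM in mutants. Kcnv1 was at 7.92 and 7.19 FPKM in wild types and 5.08 and 4.77 FPKM in mutants (-0.57, adjusted p = 0.108 in limma). Kcnf1 and Kcng1 also had an unadjusted p under 0.05 and were lower, at log2 fold changes of -0.77 and -0.51, while Kcns2 was higher at 0.63. Kcnb2, a Kv2 pore, was between 2.11 and 2.81 FPKM in every library. Kv3 channels, which allow fast firing, had Kcnc1 at 10.3 and 9.42 FPKM in wild types and 12.5 and 13.5 FPKM in mutants (0.38). Kv4 channels carry the transient A current. Kcnd3, the highest of them, was at 13.0 and 13.1 FPKM in wild types and 15.5 and 16.0 FPKM in mutants (0.26, adjusted p = 0.208).

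Among auxiliary subunits of these channels, Kcnip genes bind Kv4 pores and Kcnab genes bind Kv1 pores. Of the 7 tested, 0 had an unadjusted p under 0.05, where 19.5% of all genes lay. With the 3 untested Kcne genes they summed to 49.0 and 49.3 FPKM in wild types and 43.2 in both mutants. Kcnip2 was at 7.39 and 11.3 FPKM in wild types and 6.48 and 5.60 FPKM in mutants, below in both. Kcne1l, whose name the rule leaves out, was at 4.15 and 3.23 FPKM in wild types and 6.09 and 5.26 FPKM in mutants. Its log2 fold change was 0.56 (adjusted p = 0.193 in limma), without passing the threshold. The BK and Slo genes include pores that open with calcium or sodium. The group summed to 28.9 and 29.8 FPKM in wild types and 30.0 and 25.9 FPKM in mutants. Of 6 tested, 1 had an unadjusted p under 0.05 (16.7%, against 19.5% of all genes). It was Kcnt2, a sodium-activated pore (log2 fold change -0.57, adjusted p = 0.186 in limma). Kcnu1, a pore best known from sperm, was listed at 7.05 and 7.18 FPKM in wild types and 5.89 and 5.55 FPKM in mutants, above Kcnma1, the BK pore, in 3 of 4 libraries.

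SK channels open when calcium binds their calmodulin, and the 3 tested genes differed in direction. Kcnn3 was at 5.74 and 6.89 FPKM in wild types and 3.11 and 3.95 FPKM in mutants (-0.76, adjusted p = 0.114 in limma), Kcnn1 was higher in both mutants (0.64, adjusted p = 0.153), and Kcnn2 overlapped at 14.6 to 19.1 FPKM. The summed level of the SK genes was 23.8 and 27.3 FPKM in wild types and 23.7 and 28.1 FPKM in mutants. The inward rectifiers hold the resting potential, and 5 of 7 tested genes were lower in both mutants, where 25.8% of all tested genes were. Kcnj4, 1 of these 5, passed the filter through the wild types alone, so that it could enter only as lower. Kcnj3, a G-protein-gated subunit, was at 14.4 and 13.0 FPKM in wild types and 10.3 in both mutants (-0.39, adjusted p = 0.140), and its exons overlap Gm26794 on the other strand over 31.1% of their length. Kcnj2 and Kcnj11, the second of which is the pore of ATP-sensitive channels, had log2 fold changes of -0.67 and -0.29. Kcnj10, which serves glia, was at 4.07 to 4.95 FPKM, and Kcnj8, which marks pericytes, at 2.92 to 3.56 FPKM. Among the leak channels, Kcnk2 was the highest at 19.9 and 17.0 FPKM in wild types and 15.3 and 17.8 FPKM in mutants, and the groups overlap.

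The sodium channels showed no changed gene: 0 of 7 tested passed in limma, where 3.48% of all genes did. An unadjusted p under 0.05 was found for 1 (14.3%, against 19.5% of all genes). All 7 log2 fold changes were below 0, from -0.34 to -0.03, with a median of -0.13. That median was -0.08 without wild-type library 1 and -0.19 without either mutant library, and Scn1a and Scn2b turned above 0 in some of these fits (0.13 for Scn1a without mutant library 1, and 0.018 and 0.0032 for Scn2b without wild-type library 1 or mutant library 2). Scn3a, the main pore of embryonic brain, was at 40.5 and 33.3 FPKM in wild types and 27.2 and 31.1 FPKM in mutants (-0.33, 95% interval -0.66 to -0.01, adjusted p = 0.248). Its log2 fold change ranged from -0.47 without wild-type library 2 to -0.19 without wild-type library 1. Scn8a, a pore of mature axon nodes, was at 20.2 and 20.1 FPKM in wild types and 19.4 and 19.6 FPKM in mutants, and Scn1a, a pore of mature inhibitory neurons, was at 5.64 and 5.91 FPKM and then 4.91 and 6.35 FPKM. Scn9a, best known from sensory neurons, was at 1.83 and 1.72 FPKM in wild types and 1.49 and 1.12 FPKM in mutants. The beta subunits, which are adhesion molecules that tune the pore, were led by Scn3b at 53.3 and 54.2 FPKM in wild types and 51.5 and 46.9 FPKM in mutants (-0.13, 95% interval -0.32 to 0.06). Its log2 fold change was -0.06 without mutant library 2. Scn2b lay at 2.89 to 3.15 FPKM over the 4 libraries.

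A further sodium pore falls outside the name rule, since the table writes Scn2a as Scn2a1. It fell from 24.6 and 25.8 FPKM to 15.7 and 14.8 FPKM, a log2 fold change of -0.70 ± 0.09 (SE, 95% interval -0.92 to -0.49, adjusted p = 0.0281 in limma). Whether this call holds with a library left out or in the other settings was not checked. Scn2a is the pore of the early axon initial segment, and the gene was singled out after its value was seen. With it included, the sodium pores summed to 93.1 and 87.2 FPKM in wild types and 69.1 and 73.5 FPKM in mutants. Its share was 26.4% and 29.6% in wild types and 22.7% and 20.2% in mutants. Scn1a, Scn3a, Scn7a and Scn9a lie on chromosome 2 between 65457118 and 66784914, a stretch of 1.33 Mb that also holds Scn2a1, and 3 of these 4 were tested without passing, while Scn7a was not tested.

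**Figure D4:**
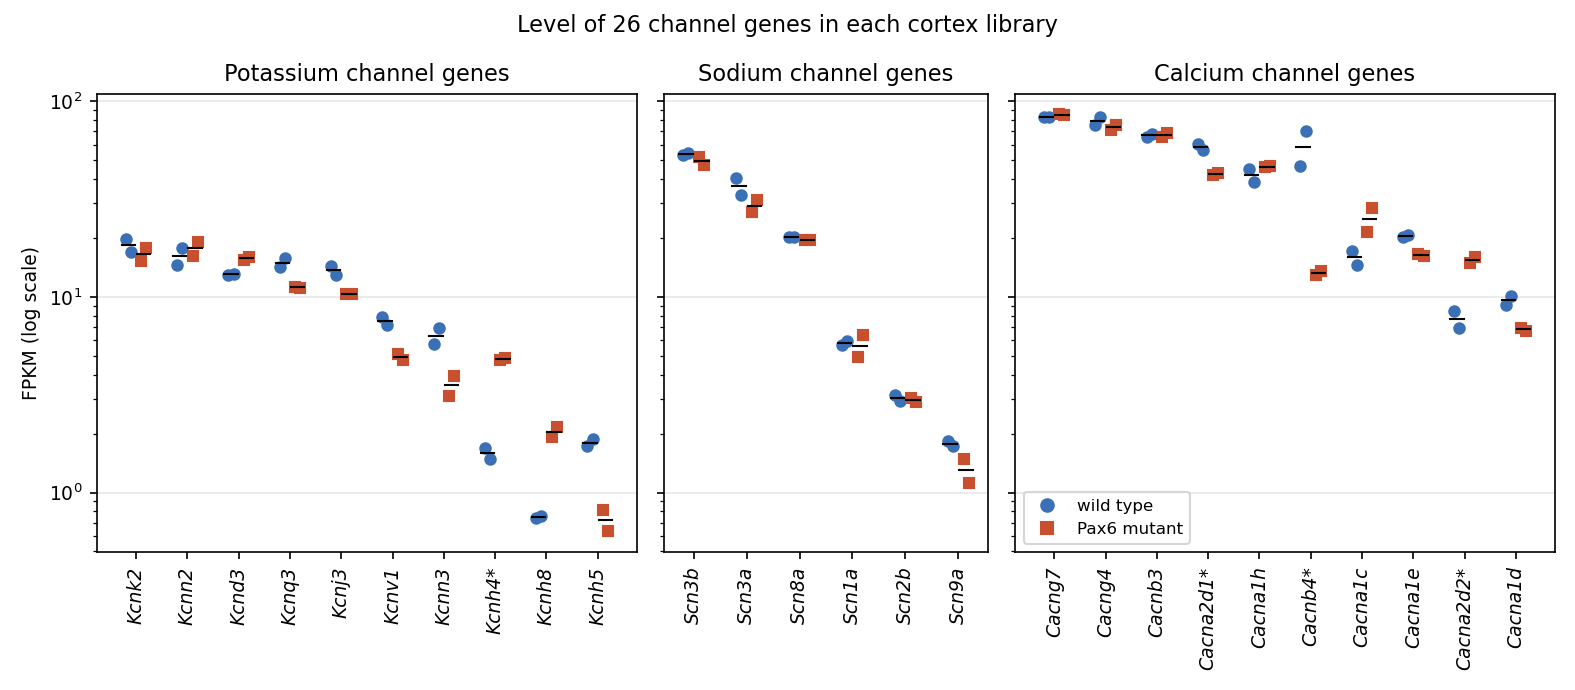
FPKM (y axis, log10 scale) of 26 channel genes (x axis, by ion) in the 2 wild-type libraries (circles) and 2 mutant libraries (squares), with a black bar at each group's mean and an asterisk on each gene with an adjusted p under 0.05. Cacnb4 shows the widest gap between groups, and Cacnb3 and Cacng7 lie at nearly the same level in all 4 libraries.

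Among genes that act with the channels, of which 59 of 64 listed names were in the table, 55 were tested, 0 rose and 2 fell in limma (3.64%), a share near the 3.48% of all genes. An unadjusted p under 0.05 was found for 14 (25.5%, against 19.5% of all genes), 2 higher and 12 lower. Nfasc, the cell adhesion molecule neurofascin that gathers sodium channels at the axon initial segment, fell from 45.3 and 47.5 FPKM to 27.6 in both mutants, a log2 fold change of -0.74 ± 0.07 (SE, adjusted p = 0.0174). Slc8a1, a sodium-calcium exchanger, fell from 27.8 and 29.3 FPKM to 17.2 and 18.0 FPKM (-0.68 ± 0.08, adjusted p = 0.0281). Neither call held in limma with any 1 of the 4 libraries left out. Of 9 tested anchors of the axon initial segment and node, 5 were lower in both mutants and 0 higher, and of 7 calcium extrusion genes 5 were lower and 0 higher, where 25.8% of all genes were lower and 25.8% higher. The glutamatergic and interneuron markers given above differ between the same libraries, and their part in these values was not tested.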

How the data were processed

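The authors deposited 1 table of FPKM values per gene for the 4 libraries, per the file headers, with no further scaling stated. The authors also deposited group FPKM, a fold (a ratio, mutant over wild type) and a p-value for each gene. The test behind that p-value is not stated. Tools, per the submitters' processing notes, were edgeR, Cufflinks 2.2.1 and TopHat2 2.0.9, on mm10 and GRCm38.p4, with no roles given. Strand is not stated, so reads of overlapping genes on opposite strands cannot be told apart: 38 channel genes overlap another gene's exons, and 45 share a deposited locus. Column totals were 579698 to 593256 FPKM. Coordinates are GENCODE M21 on GRCm38, counted from 1, and symbols were matched by identifier for 22599 of 22770 genes, since 25 names had become dates.

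Genes at 0.5 FPKM or more in 2 libraries were kept and log2(FPKM + 0.5) was tested with limma 3.58.1 (R 4.3.3, mean-variance trend, Benjamini-Hochberg over all tested genes, threshold 0.05, prior degrees of freedom 3.05). The scale understates changes of low genes. The script was tested on simulated data of 2 against 2 libraries, with 50 changed genes at each size. It called 0% of 1.5-fold, 8% of 2-fold, 66% of 4-fold and 98% of 8-fold changes. Each simulated gene had the smoothed spread of genes at its level, so these shares are only a guide. A gene that was not called may still differ. Intervals are at the 95% level. Named genes are all changed members, the 6 smallest p-values and the 6 highest means in each ion class, and changed partners. Some of these genes are not reported here. Other members are named to account for families. The members and lists were chosen with earlier results of these data known. Alternatives tried were other pseudocounts, filters, centring, no trend, a replicate block and leaving out each library.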

Additional observations from a re-analysis of the deposited data

How the results depend on the processing

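Pseudocounts of 0.1 and 1 FPKM, a filter at 1 FPKM and median centring of libraries each gave 4 changed channel genes, as reported. Keeping all low genes, or dropping the mean-variance trend, ended the calls: limma called 0 channel genes, 0 potassium, 0 calcium and 0 partner genes, with 27 and 28 channel genes at an unadjusted p under 0.05, and 61 and 54 genes of the whole table instead of 536. The cause was not tested. With 1 library left out, which leaves a lone library assumed to vary like the other group, the same counts were 0 to 0 for channel genes, potassium, calcium and partners, and 7 to 59 over all genes. Adjusted p over all alternatives was 0.0174 to 0.145 for Cacnb4, 0.0299 to 0.199 for Kcnh4, 0.0317 to 0.201 for Cacna2d2 and 0.0379 to 0.218 for Cacna2d1. Sodium channel genes gave 0 calls in every setting. Direction reversed for Cacnb3 (-0.023 to 0.047), Kcnn2 (-0.018 to 0.26), Scn1a (-0.21 to 0.13) and Scn2b (-0.074 to 0.018) when a library was left out. Of 308 comparisons of named genes with an alternative, 275 kept direction and side of the threshold, 27 lost the call and 6 reversed. With the replicate number as a block, 1 channel gene (the calcium channel gene Cacnb4) was called, with 0 potassium channel genes, 2 partners, and 374 genes in all, 336 of them shared. The numbers share no stated origin, so they were not taken to pair the samples. The correlation of same-number deviations was 0.049. It rests on 1 contrast, since the deviations of the 2 libraries in a group mirror each other.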
